A study of Homo sapiens with 6 samples.

Results

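The genes described here build the nuclear pore complex and carry cargo through it: nucleoporins, importins, exportins, and the small GTPase Ran with its regulators. They were chosen by symbol: NUP followed by a digit, or a symbol beginning KPNA, KPNB, IPO, XPO or TNPO, plus TPR, SEH1L, AAAS, RAE1, NDC1, POM121, RAN, RANBP1, RANBP2 and RCC1. Pseudogenes were left out. Of 19775 genes with a probe set of their own on the array, 56 protein-coding genes met this rule. They comprised 30 nucleoporins, 23 transport receptors and 3 genes of the Ran cycle. A further 3 long noncoding RNAs carry symbols of the same form (IPO9-AS1, NUP133-DT and NUP50-DT). They encode no transport protein and are given apart. KPNA7 had no probe set of its own in the annotation used and was not analysed here.

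The nuclear pore is built from rings of scaffold nucleoporins that are anchored in the nuclear envelope, a central channel filled with phenylalanine-glycine (FG) repeats, filaments on the cytoplasmic face and a basket on the nuclear face. Importins bind cargo in the cytoplasm and release it in the nucleus on meeting Ran-GTP, whereas exportins bind cargo together with Ran-GTP and release it in the cytoplasm when the GTP is hydrolysed. In dividing cells the pore is dismantled and rebuilt at each mitosis, and several pore proteins, importins and Ran also act on the spindle and kinetochores. XPO1 is the target of the myeloma drug selinexor.

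RNA was hybridised to 6 Affymetrix arrays and came from MM1.S, an established human line of multiple myeloma, a cancer of plasma cells. All cultures had been infected with a lentiviral pKLO vector and sorted for GFP. In the 3 control cultures the vector carried a control shRNA, and in the 3 knockdown cultures an shRNA against beta-catenin. The sample titles call the arrays biological replicates. The labels describe triplicate cultures of each sorted population and name no separate infections. The p-values therefore measure the spread between these cultures, which may be technical. No hairpin sequence was given in the sources used here. A description field of the labels speaks of embryos, which contradicts the named cell line, and was not used.

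Values are log2 expression with a floor at 4, as deposited, and each gene was read by the brightest of its probe sets. A gene was tested if its mean over the arrays reached 5.49, the median of all probe set means. Changes are knockdown minus control on this log2 scale, with the standard error (SE) of limma's moderated linear model, and a gene was called when its Benjamini-Hochberg adjusted p over all 12939 genes tested was under 0.05. CTNNB1, the gene of beta-catenin, fell by 1.33 (SE 0.10, limma, adjusted p = 9.04e-12) on its brightest probe set. A dimmer probe set was called higher (0.33, limma over all probe sets, adjusted p = 0.0390), with every knockdown array above every control array. Another dimmer one gave −0.07 without a call. Array medians ran from 5.44 to 5.54. All 12 plasma cell markers lay above the filter. Their mean was 9.62 to 9.73 on control and 9.84 to 9.90 on knockdown arrays. Of the 12, 5 were called higher (41.7%, against 25.3% of all genes), MZB1 by 0.82 and SLAMF7 by 0.80 the most. The 3 called lower (25%) were near the share of all genes (22%). Named after their values were seen, they were TNFRSF17 (−0.32), IRF4 (−0.23) and SDC1 (−0.20). Of 7 B cell markers, 4 lay below the filter, MS4A1 and PAX5 among them. Of the 3 tested, CR2 and BACH2 were called higher, against 25.3% of all genes. BACH2 passed the filter only through its knockdown level, with a mean of 5.00 in control and 6.11 in knockdown cultures. The mean of the 7 was 5.55 to 5.68 in control and 5.89 to 5.99 in knockdown arrays. The part of these markers in the results was not tested. For ACTB, the control probe sets at the 3' end read higher than those at the 5' end by 0.67 ± 0.19 on control and 0.58 ± 0.05 on knockdown arrays (SD, n = 3 each; exact two-sided permutation p = 0.7). The same measure for GAPDH was 0.24 ± 0.16 and 0.28 ± 0.04 (SD, n = 3 each; exact two-sided permutation p = 0.8). With 3 against 3 arrays this test cannot go below 0.1.

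Most genes of the pore and of the transport cycle were lower in the knockdown cultures. Of the 56 genes, 54 passed the filter on dim signals. Of these, 38 were lower, 2 were higher (NUP210 and XPOT) and 14 were not called. Over all genes tested, 22% were called lower, 25.3% higher and 47.3% in either direction. The 54 genes had a median change of −0.59, and the middle of their distribution ran from −0.93 to −0.17. All genes tested had a median of 0.05. With the mean over all of a gene's probe sets the median of these genes was −0.35. In 12 of the 54 the fall was 1 or more, which is at least 2.01-fold, against 3.39% of all genes; none rose by as much, against 2.74% of all genes. Every knockdown array read below every control array for 39 of the 54, against 24.5% of all genes. The 39 were the 38 called lower and NUP42, which was not called. The knockdown lay wholly above for 3 of the 54 (NUP210, XPOT and KPNA6, the last not called), against 29.9% of all genes. The mean level of the 54 genes was 7.88 to 8.02 on the control arrays and 7.30 to 7.45 on the knockdown arrays. The SD between cultures of one group had a median of 0.11 over the 54 genes in control and 0.10 in knockdown cultures, so most of these falls exceeded the culture-to-culture spread several times over. In bulk RNA such a difference cannot distinguish less RNA in every cell from fewer cells that express the gene.

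**Figure D1:**
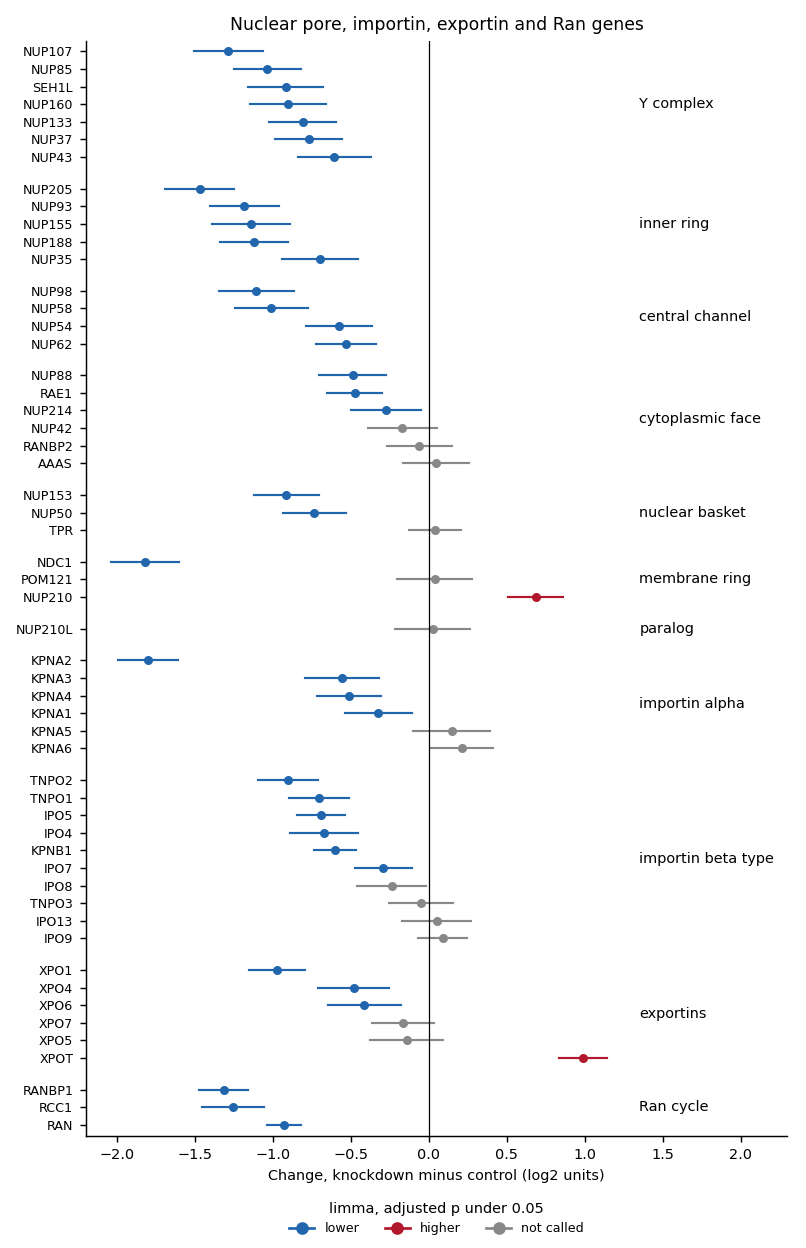
Change of each of the 54 tested genes, knockdown minus control, in log2 units on the horizontal axis, with the 95% confidence interval of the moderated fit, grouped by place in the pore or role in transport. Blue marks the 38 genes called lower, red the 2 called higher (NUP210 and XPOT) and grey the 14 not called.

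The 12 scaffold genes of the outer and inner rings that the symbol rule takes in were all called lower. The outer ring is built from the Y complex, and its 7 genes in the set fell by 0.61 to 1.29. SEC13 and AHCTF1, which also belong to the Y complex but lie outside the rule, were not called lower and are given with the other transport genes. NUP107, which gives the complex its other name, read 8.49, 8.28 and 8.41 in the controls and 7.20, 7.26 and 6.85 in the knockdown. It fell by 1.29 (SE 0.11), or 2.44-fold (limma, adjusted p = 4.22e-11). The third knockdown array was the lowest, and the groups lay over 1 log2 unit apart. NUP85 and its partner SEH1L, which form a short arm of the Y, fell by 1.04 and 0.92. The others were NUP160 (−0.90), NUP133 (−0.81), NUP37 (−0.77) and NUP43 (−0.61). The largest adjusted p of the 7 was that of NUP43 (limma, 5.52e-05). Averaged over its probe sets, NUP43 gave −0.10 and lost its call (limma, adjusted p = 0.332), its other probe set, below the filter, being called higher (0.40).

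The 5 inner ring genes had the lowest median of the scaffold classes, −1.14. NUP205, one of its large solenoid proteins, read 8.02, 7.80 and 7.96 in the controls and 6.55, 6.53 and 6.29 in the knockdown. It fell by 1.47 (SE 0.11), or 2.77-fold (limma, adjusted p = 2.06e-12), and no array of one group reached the other. NUP188, its paralog in structure, read 7.48, 7.35 and 7.46 in the controls and 6.33, 6.39 and 6.21 in the knockdown. It fell by 1.12 (SE 0.11; limma, adjusted p = 3.95e-10), although a dimmer NUP188 probe set near the filter gave 0.17 without a call. NUP93, the linker that holds the inner ring together, read 7.24, 7.17 and 7.14 in the controls and 6.10, 6.05 and 5.86 in the knockdown, and fell by 1.18 (SE 0.11; limma, adjusted p = 2.32e-10). These 3 genes were thus lower on all knockdown arrays, at 36.1%, 45.9% and 44.1% of the control level. NUP155, which contacts the membrane, read 6.61, 6.34 and 6.74 in the controls and 5.28, 5.56 and 5.43 in the knockdown. It fell by 1.14 (SE 0.12; limma, adjusted p = 6.02e-09), and it was the 1 gene of the set whose knockdown mean lay below the filter, where the log2 scale with its floor understates a fall. NUP35, a membrane-binding member, fell by 0.70.

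The 4 channel genes were called lower, 2 of them (NUP54 and NUP58) not under every choice of probe set. NUP98 carries FG repeats of the channel and binds RAE1, and its transcript also encodes the Y complex protein Nup96. It read 7.56, 7.15 and 7.55 in the controls and 6.43, 6.33 and 6.19 in the knockdown. It fell by 1.11 (SE 0.12), or 2.15-fold (limma, adjusted p = 4.70e-09), with the second control array lower than the other controls. Of the channel trimer, NUP58 fell by 1.01, NUP54 by 0.57 and NUP62 by 0.53. Averaged over its probe sets, NUP54 gave −0.06 and was not called (limma, adjusted p = 0.610). With probe sets lacking an _x_ or _s_ mark first, NUP58 gave −0.13 and lost its call (limma, adjusted p = 0.417). Of 6 genes of the cytoplasmic face, 3 were lower and 3 were not called, with a median of −0.22. NUP88, which anchors NUP214, fell by 0.49, and the mRNA export factor RAE1 by 0.48. Averaged over its probe sets, NUP88 gave −0.19 and lost its call (limma, adjusted p = 0.0666). NUP214 fell by 0.27 (limma, adjusted p = 0.0402), a call that did not hold without control replicate 1 (−0.18, adjusted p = 0.205), without knockdown replicate 1 (−0.28, adjusted p = 0.0856) or without knockdown replicate 3 (−0.23, adjusted p = 0.125). RANBP2, the giant protein of the cytoplasmic filaments, differed by −0.06 (95% interval −0.27 to 0.15) and ALADIN, encoded by AAAS, by 0.05 (−0.17 to 0.26). NUP42, the partner of the export factor GLE1, differed by −0.17 (−0.39 to 0.05), with its arrays separate but the change not called.

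Within the nuclear basket, NUP153 and NUP50 fell and TPR was not called. NUP153, which binds importins and lamins, fell by 0.91 (SE 0.10; limma, adjusted p = 9.94e-09) and NUP50, which helps take importin alpha apart from its cargo, by 0.73. TPR forms the coiled-coil strands of the basket. It read 9.43, 9.17 and 9.31 in the controls and 9.35, 9.39 and 9.29 in the knockdown, and these values overlap. Its change was 0.04 (95% interval −0.12 to 0.20; limma, adjusted p = 0.717), and its 4 other probe sets above the filter were not called either.

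The 3 membrane nucleoporins went different ways. NDC1, a multipass protein that anchors the pore, had the largest fall of all 54 genes. It read 8.72, 8.47 and 8.49 in the controls and 6.81, 6.83 and 6.58 in the knockdown, and fell by 1.82 (SE 0.11), or 3.53-fold (limma, adjusted p = 9.27e-15). A second NDC1 probe set fell by 1.56. NUP210, the glycoprotein gp210 with most of its mass in the lumen of the envelope, rose. It read 8.46, 8.28 and 8.28 in the controls and 9.03, 9.07 and 8.98 in the knockdown, a rise of 0.69 (SE 0.09), or 1.61-fold (limma, adjusted p = 1.19e-07). Every knockdown array read above every control array for NUP210 and below every control array for NDC1. Of the 4 other NUP210 probe sets above the filter, 3 were called higher. POM121 differed by 0.04 (95% interval −0.20 to 0.28) on its 1 probe set. POM121C, its near-identical copy, fell by 0.69, and hybridisation may not tell these copies apart. NUP210L, a paralog of NUP210, differed by 0.02. NUP62CL lay below the filter and was not tested, at 5.27 ± 0.13 in control and 5.02 ± 0.13 in knockdown cultures (SD, n = 3 each).

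The promoter of NDC1 is shown because the gene had the largest fall. The stretch is chr1:53838247-53838546, minus strand of GRCh38.p14 by RefSeq, 250 bases before the gene's start and 50 after it, printed 5′ to 3′ along the gene. Capitals mark TTTGAA, a part of the cell-cycle homology region (CHR) of mitotic promoters, whose first base lay at −31 from the start.
NDC1: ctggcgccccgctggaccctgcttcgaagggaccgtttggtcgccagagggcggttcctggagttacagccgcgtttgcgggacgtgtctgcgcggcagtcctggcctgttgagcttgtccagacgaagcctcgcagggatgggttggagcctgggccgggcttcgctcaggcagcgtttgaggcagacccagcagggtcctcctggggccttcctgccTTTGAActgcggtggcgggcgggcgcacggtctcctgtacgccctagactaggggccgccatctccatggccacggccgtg

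All 3 genes of the Ran cycle fell. RAN, the GTPase whose nucleotide state gives transport its direction, read 11.70, 11.66 and 11.51 in the controls and 10.64, 10.74 and 10.70 in the knockdown. It fell by 0.93 (SE 0.05), or 1.90-fold (limma, adjusted p = 1.33e-14). A second RAN probe set, at 7.75 in control and 7.96 in knockdown cultures, gave 0.21, which was no call. That probe set is the one read when probe sets lacking an _x_ or _s_ mark are taken first, and RAN's direction then reverses. RCC1, the chromatin-bound exchange factor that loads Ran with GTP in the nucleus, read 8.14, 8.11 and 8.18 in the controls and 6.86, 6.92 and 6.89 in the knockdown. It fell by 1.25 (SE 0.10), or 2.39-fold (limma, adjusted p = 7.84e-12), with an SD of 0.04 in control and 0.03 in knockdown cultures. RANBP1, a cofactor for GTP hydrolysis in the cytoplasm, read 10.27, 10.11 and 10.06 in the controls and 8.77, 8.89 and 8.83 in the knockdown, and fell by 1.32 (SE 0.08), or 2.49-fold (limma, adjusted p = 1.24e-14). For all 3 genes the brightest probe set separated the groups completely. The second probe sets of RCC1 and RANBP1 above the filter also fell, by 1.02 and 0.39.

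The RAN promoter (chr12:130871816-130872115, plus strand, GRCh38.p14, RefSeq) is shown because it held a pair of the motifs searched. Capitals mark, in order, CACGTG, an E-box, with its first base at −102, and TTTGAA at −3.
RAN: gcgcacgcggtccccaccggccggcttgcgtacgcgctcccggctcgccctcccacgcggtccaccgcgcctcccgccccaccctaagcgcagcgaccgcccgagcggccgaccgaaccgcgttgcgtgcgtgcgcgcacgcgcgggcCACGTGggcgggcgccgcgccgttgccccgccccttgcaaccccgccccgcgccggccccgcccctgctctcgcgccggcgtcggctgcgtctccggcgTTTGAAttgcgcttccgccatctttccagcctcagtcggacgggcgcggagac

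**Figure D2:**
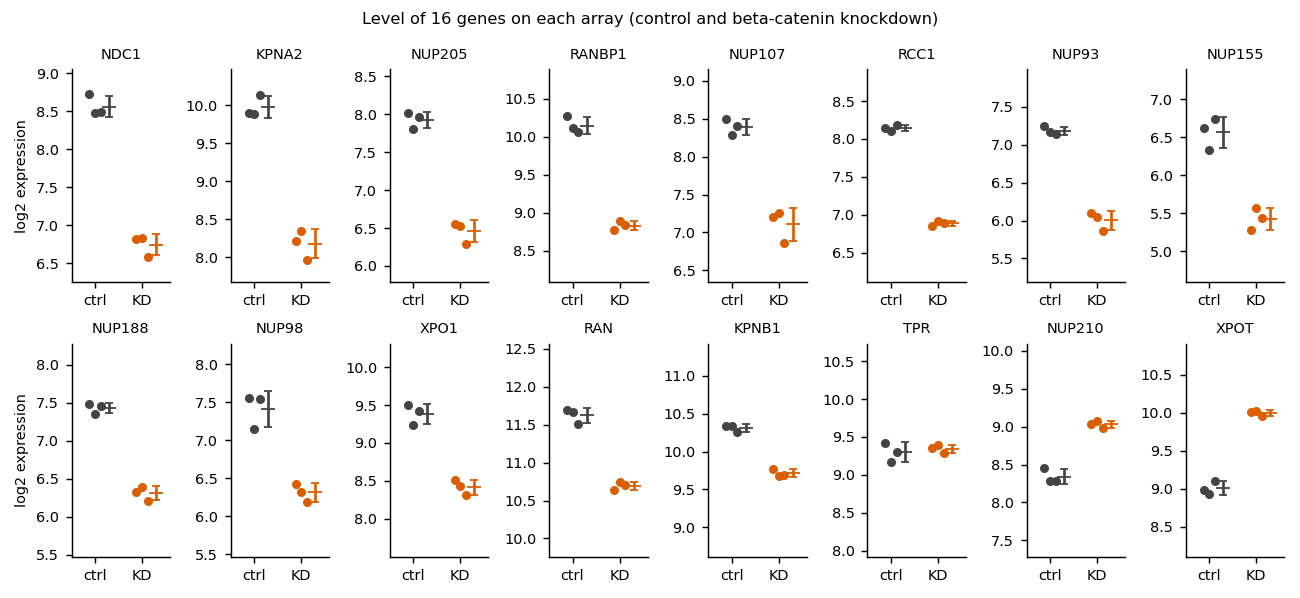
Log2 expression of 16 genes on each array, with control (ctrl) points in dark grey and knockdown (KD) points in orange; bars give the group mean and SD (n = 3), and each panel spans the same number of log2 units. The groups are separate in all panels except TPR, and the knockdown lies higher in NUP210 and XPOT.

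Among the importin alpha adaptors, which hold the nuclear localisation signal of a cargo, KPNA2 fell most. It read 9.90, 9.88 and 10.14 in the controls and 8.22, 8.34 and 7.97 in the knockdown. It fell by 1.80 (SE 0.09), or 3.48-fold (limma, adjusted p = 9.41e-16), to 28.7% of the control level. Its other probe set fell by 1.59. KPNA3, KPNA4 and KPNA1 fell by 0.56, 0.51 and 0.33. Averaged over its probe sets, KPNA4 gave −0.19 and lost its call (limma, adjusted p = 0.0757). Of its 4 other probe sets, 2 were called lower, and 1 that was not called read above control on every knockdown array (0.34). KPNA1 gave mixed readings: 3 of its other probe sets above the filter were lower, 1 was higher (0.42) and 1 was not called, and the call was lost without control replicate 3 (−0.29; limma, adjusted p = 0.0561). KPNA5 and KPNA6 were not called, at 0.15 (95% interval −0.10 to 0.39) and 0.21 (0.01 to 0.41). The brightest KPNA6 probe set read higher on every knockdown array, but its 3 others, all above the filter, gave −0.22, −0.28 and −0.26, the last 2 with every knockdown array below the controls and none called. The brightest one was called higher under quantile normalization (0.23; limma, adjusted p = 0.0193), under cyclic loess (0.21; limma, adjusted p = 0.0284) and without control replicate 1 (0.25; limma, adjusted p = 0.0446).

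The KPNA2 promoter (chr17:68035485-68035784, plus strand, GRCh38.p14, RefSeq) is shown for its matches to motifs of mitotic promoters. Capitals mark TTTGAA on the opposite strand at −99, CCAAT, the NF-Y box, at −89 and −58, and TTTGAA at 33.
KPNA2: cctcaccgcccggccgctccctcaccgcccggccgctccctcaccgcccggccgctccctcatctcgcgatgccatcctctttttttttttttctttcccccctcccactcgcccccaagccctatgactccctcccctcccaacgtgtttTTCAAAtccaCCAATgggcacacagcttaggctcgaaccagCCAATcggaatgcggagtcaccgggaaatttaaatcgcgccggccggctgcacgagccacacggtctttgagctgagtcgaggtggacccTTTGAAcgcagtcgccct

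Of 10 tested import receptors of the importin beta type, 6 were lower and 4 were not called. KPNB1, importin beta 1, the partner of importin alpha, read 10.34, 10.34 and 10.26 in the controls and 9.77, 9.68 and 9.69 in the knockdown. It fell by 0.60 (SE 0.07), or 1.52-fold (limma, adjusted p = 9.50e-09), and all 6 of its probe sets were called lower. The transportins TNPO2 and TNPO1, which carry hnRNP proteins, fell by 0.90 and 0.70. IPO5 and IPO4, which carry histones and ribosomal proteins, fell by 0.69 and 0.67, and IPO7 by 0.29. The IPO7 call was lost without knockdown replicate 3 (−0.22; limma, adjusted p = 0.0822). IPO8, the closest relative of IPO7, differed by −0.24 (95% interval −0.46 to −0.01; limma, adjusted p = 0.0738). It was called lower without control replicate 2 (−0.35, adjusted p = 0.00820), with array medians centred (−0.29, adjusted p = 0.0233), under quantile normalization (−0.24, adjusted p = 0.0260) and cyclic loess (−0.25, adjusted p = 0.0261), and when the filter was raised to the 75th percentile of probe set means (adjusted p = 0.0443). TNPO3, the carrier of SR splicing factors, differed by −0.05 (−0.25 to 0.15) on its brightest probe set, but another TNPO3 probe set fell by 0.66 and the mean over its probe sets was called lower (−0.32; limma, adjusted p = 0.00488). IPO13, which both imports and exports, differed by 0.05 (−0.17 to 0.27), and IPO9, a histone carrier, by 0.09 (−0.07 to 0.25). The IPO9 value came from a probe set with an _x_ mark. Other IPO9 probe sets above the filter gave −0.11 and 0.27, neither called, the latter with every knockdown array above every control array. IPO11 lay below the filter and was not tested, at 4.87 ± 0.24 in control and 4.82 ± 0.23 in knockdown cultures (SD, n = 3 each).

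The exportins moved in both directions. XPO1 (CRM1), which exports proteins with a leucine-rich signal, read 9.50, 9.24 and 9.42 in the controls and 8.51, 8.43 and 8.31 in the knockdown. It fell by 0.97 (SE 0.09), or 1.96-fold (limma, adjusted p = 1.76e-10), and a second probe set fell by 0.74. XPOT, the exporter of tRNA, read 8.98, 8.93 and 9.10 in the controls and 10.01, 10.03 and 9.96 in the knockdown. It rose by 0.99 (SE 0.07), or 1.99-fold (limma, adjusted p = 3.86e-12), and its other probe set rose by 0.52. The groups did not overlap for either gene, with XPO1 close to 50.9% of its control level and XPOT at 199%. XPO4 and XPO6, an exporter of actin, fell by 0.48 and 0.41. The XPO6 call was lost without knockdown replicate 3 (−0.25; limma, adjusted p = 0.0650). XPO7 differed by −0.16 (95% interval −0.36 to 0.03). XPO5, which exports microRNA precursors, differed by −0.14 (−0.37 to 0.09) on its brightest probe set, while its 2 other probe sets fell by 0.52 and 0.33 and their mean with it was called lower (−0.33; limma, adjusted p = 0.00416).

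The XPOT promoter (chr12:64404142-64404441, plus strand, GRCh38.p14, RefSeq) is shown as that of the largest rise. None of the motifs searched had its letters in this window, so no base is in capitals.
XPOT: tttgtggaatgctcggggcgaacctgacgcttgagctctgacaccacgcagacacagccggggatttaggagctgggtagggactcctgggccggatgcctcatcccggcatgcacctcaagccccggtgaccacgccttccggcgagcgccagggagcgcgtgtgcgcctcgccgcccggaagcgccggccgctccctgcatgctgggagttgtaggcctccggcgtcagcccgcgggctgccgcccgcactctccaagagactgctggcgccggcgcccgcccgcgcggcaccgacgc

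Where a gene had several probe sets, most gave the same direction. Over the 54 genes there were 78 further probe sets above the filter, and 61 of them had the sign of the brightest one. A further probe set above the filter existed for 29 of the 40 called genes. In 22 of these at least 1 was called the same way, and in 7 none was called. KPNA1, among the 22, also had 1 called the opposite way. The 7 were NUP188, NUP58, RAN, NUP133, KPNA3, XPO6 and NUP214. These calls were adjusted over all 54613 probe sets that are no controls, of which 9.95% were lower and 13.3% higher. The other 11 called genes rested on 1 probe set above the filter. The position of the probe sets along the transcripts was not analysed here.

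**Figure D3:**
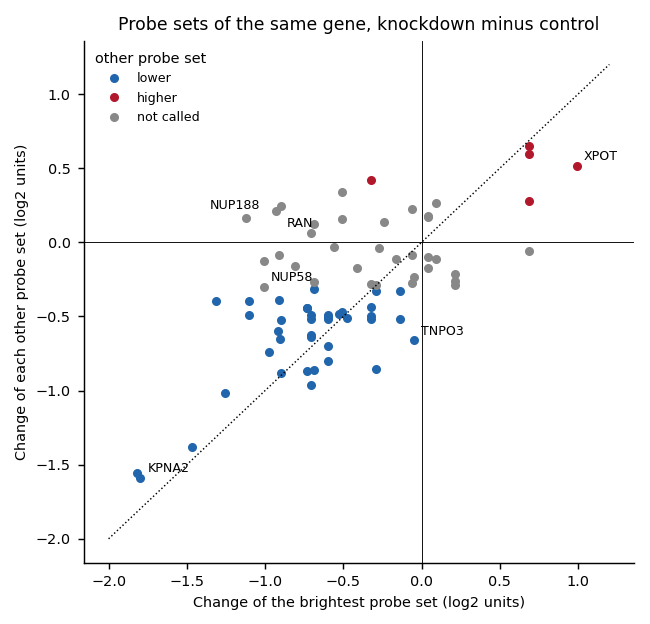
Each point is a further probe set above the filter; the horizontal axis gives the change of the gene's brightest probe set and the vertical axis that of the further one, both in log2 units, with equality on the dotted line. Of the 78 points 61 share the sign of the brightest probe set, and labels mark genes discussed in the text.

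The other genes of nuclear transport moved in the same range. Of 38 such genes listed, 31 had a probe set of their own and 30 passed the filter. Of these, 18 were lower (60%, against 22% of all genes) and 1 was higher (3.33%, against 25.3% of all genes). The other 11 were not called, and the median was −0.46. The smallest adjusted p was that of ALYREF, an adaptor of mRNA export (−1.80, limma, adjusted p = 3.67e-16). Next by adjusted p was DDX39A, a helicase of the same step (−1.46, limma, adjusted p = 1.29e-14). CSE1L, the exportin that returns importin alpha to the cytoplasm, fell by 1.47 (limma, adjusted p = 3.48e-14). RANGAP1, which triggers GTP hydrolysis by Ran, fell by 1.34 (limma, adjusted p = 7.65e-12). SEC13, a Y complex protein shared with COPII vesicles, was the 1 gene called higher (0.32; limma, adjusted p = 0.00277) and was named after its values were seen. AHCTF1 (ELYS), which seeds pores on chromatin, differed by −0.11 and was not called.

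Among 14 genes of the lamina and inner nuclear membrane that passed the filter, 7 were lower (50%, against 22% of all genes) and 4 higher (28.6%, against 25.3% of all genes). Their median was −0.54. TMPO (LAP2), the B-type lamin LMNB1, the chromatin-binding BANF1 and the lamin B receptor LBR fell by 1.39, 1.71, 1.10 and 0.91. The genes called higher were SUN2, SUN1, LMNA, which encodes the A-type lamins, and LEMD3, by 0.60, 0.47, 0.37 and 0.28. Tested against a 1.2-fold change, 1 lamina gene was called higher. The 4 were all named, SUN1, SUN2, LMNA and LEMD3, after their values were seen. Beside all of these, 20 of 20 mitosis genes were lower, with a median of −1.89; CCNB1 fell by 2.57 (limma, adjusted p = 1.71e-18). The mean level of these 20 was 8.39 to 8.57 on the control arrays and 6.50 to 6.74 on the knockdown arrays. The part of cell division in the falls of the pore and transport genes was not tested.

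**Figure D4:**
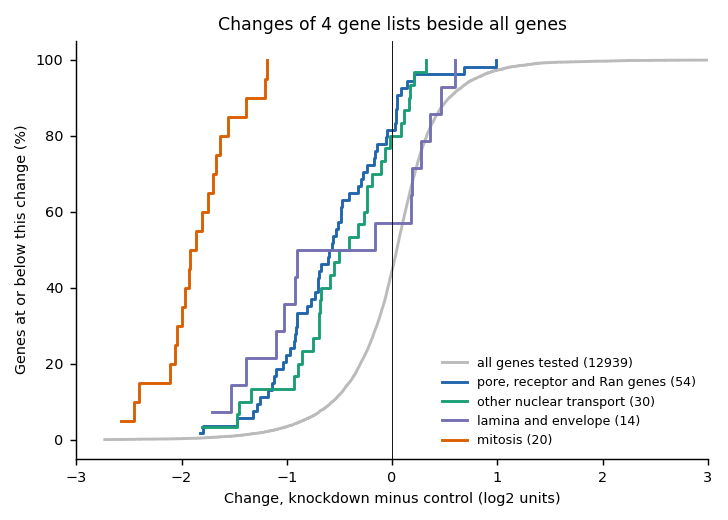
Cumulative percentage of genes (vertical axis) at or below each change in log2 units (horizontal axis, drawn from −3 to 3) for 4 gene lists and for all 12939 genes tested. The curve of the 54 pore, receptor and Ran genes has its median at −0.59, between that of all genes (0.05) and that of the 20 mitosis genes (−1.89).

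The promoters were searched for motifs because the genes moved together. Of the 56 genes, 50 had a promoter in the RefSeq table (GRCh38.p14), 34 of them genes called lower and 12 genes not called. Each motif was searched on both strands in the 300-base window. Matches are descriptions of letters and not of binding. CACGTG, the E-box bound by MYC and related factors, was in 7 of 34 promoters of genes called lower (20.6%), in 0 of 12 of genes not called and in 8.88% of 15842 protein-coding promoters. TTTGAA was in 9 of the 34 (26.5%), in 0 of the 12 and in 12.1% of all. CCGGAAGT, bound by ETS factors, was in 7 of the 34 (20.6%), 2 of the 12 (16.7%) and 6.19% of all. CCAAT was in 16 of the 34 (47.1%), 5 of the 12 (41.7%) and 36.4% of all. The palindromic NRF1 motif was in 3 of the 34 (8.82%) and 1.75% of all. The E2F motif TTTCCCGC was in 0 of the 34 against 2.18% of all, and TTTGGCGC in 1 of the 34 (2.94%) against 0.890%. ATCAAAG, a form of the motif of the TCF/LEF factors through which beta-catenin acts, was in 0 of the 50 promoters and in 1.94% of all. Other forms of that motif were not searched, so these promoters may hold them. With so few promoters these shares are coarse, and no test was made.

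**Figure D5:**
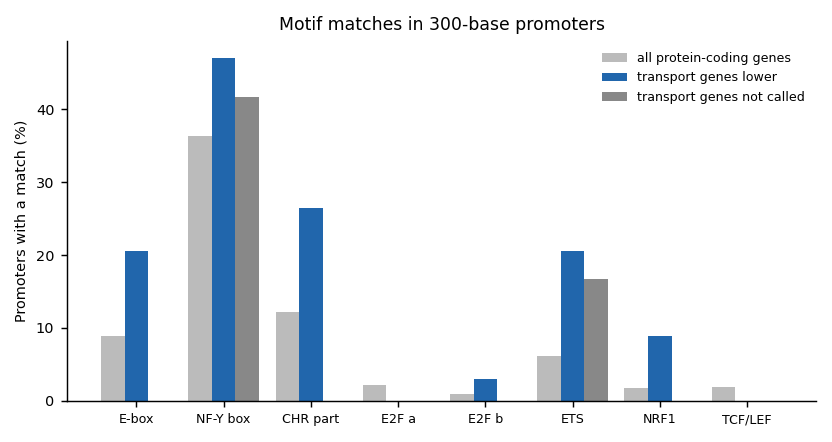
Percentage of 300-base promoters with at least 1 match of each motif (horizontal axis), for all 15842 protein-coding genes, the 34 transport genes called lower and the 12 not called; bars start at 0. E2F a is TTTCCCGC and E2F b is TTTGGCGC, and a missing bar stands for 0 matches. Among the 12 genes not called, CCAAT and the ETS motif alone had a match.

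The E-box windows of the other 6 genes are shown to compare the flanks of the motif, with CACGTG in capitals, the build GRCh38.p14 and the gene's own strand. NUP188 held the motif at 2 places, −77 and −30 from the gene's start.
NUP188, chr9:128947605-128947644, plus strand: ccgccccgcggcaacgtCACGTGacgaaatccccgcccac
NUP188, chr9:128947652-128947691, plus strand: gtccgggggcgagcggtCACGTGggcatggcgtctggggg
NUP50, chr22:45163734-45163773, plus strand: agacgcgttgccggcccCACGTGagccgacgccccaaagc
IPO4, chr14:24188823-24188862, minus strand: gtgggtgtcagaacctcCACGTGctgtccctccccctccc
IPO7, chr11:9384497-9384536, plus strand: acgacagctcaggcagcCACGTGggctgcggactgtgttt
KPNA3, chr13:49792726-49792765, minus strand: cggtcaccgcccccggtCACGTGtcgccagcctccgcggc
TNPO2, chr19:12723934-12723973, minus strand: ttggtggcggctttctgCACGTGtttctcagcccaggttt

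The TTTGAA windows of the other called genes are shown in the same way, with the letters in capitals. Where the match lies on the opposite strand it reads TTCAAA. The promoters of KPNA2, NUP205, NUP98, NUP37 and NUP35 held CCAAT as well as TTTGAA.
NUP205, chr7:135557735-135557774, plus strand: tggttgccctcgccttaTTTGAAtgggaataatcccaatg
NUP98, chr11:3797655-3797694, minus strand: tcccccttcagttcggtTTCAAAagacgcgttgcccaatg
NUP37, chr12:102120158-102120197, minus strand: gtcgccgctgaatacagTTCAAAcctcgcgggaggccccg
NUP35, chr2:183124391-183124430, plus strand: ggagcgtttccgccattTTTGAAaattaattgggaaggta
NUP153, chr6:17707144-17707175, minus strand: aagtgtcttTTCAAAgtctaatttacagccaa
IPO7, chr11:9384453-9384492, plus strand: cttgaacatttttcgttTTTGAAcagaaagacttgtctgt

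Of the 3 noncoding RNAs with symbols of the same form, NUP133-DT was called higher by 0.34 (SE 0.13, limma, adjusted p = 0.0360). It had 1 dim probe set, with a mean of 5.33 in control and 5.66 in knockdown cultures. It passed the filter at 5.49 only through its knockdown level, so the call is weak and is not set against NUP133. For IPO9-AS1 the difference was −0.10, without a call (limma, adjusted p = 0.534). NUP50-DT lay below the filter.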

How the data were processed

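The authors deposited a table of log2 expression for 54675 probe sets on each array, of which 62 are Affymetrix controls and stayed out of the tests. The floor at 4 is that of log2(signal + 16), as read from the values, so changes of dim genes are understated. MAS5 and PLIER are listed in the submitters' processing notes. Which of them made the table, and any scaling between arrays, is not stated there. Group and replicate were taken from sample titles.

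Probe sets were named by the platform annotation: 41091 had 1 symbol, 1801 several and 11721 none. Of the single symbols, 41037 matched RefSeq by gene ID and 0 were out of date. Probe sets with several symbols, 6 of them including a gene described here, were not used. Values entered limma 3.58.1 (lmFit, eBayes with trend) in R 4.3.3 as deposited, with the highest-mean probe set per gene, a filter at the median probe set mean and Benjamini-Hochberg adjustment. The fit was tested on simulated data: of 100 genes changed 2-fold among 12939, 95% were recovered, and of 100 changed 1.5-fold, 66%. Only these genes were changed there, whereas 47.3% of all genes were called in the data, so recovery in the data may differ. The number of arrays limits precision.

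Genes, lists, motifs and alternatives were chosen with earlier results of these data known. Array values are printed for the 10 largest called falls and rises with separate groups (2 rises), and XPO1, KPNB1, KPNA2, RAN, RCC1, RANBP1, TPR and NUP98; up to 4 called members of each other list are named by adjusted p. Of the T and NK cell, myeloid and fibroblast marker lists, 4, 5 and 6 genes were tested. Of these, 0, 1 and 1 were called higher, against 25.3% of all genes, and 0, 0 and 1 lower, against 22%. FAP, the fibroblast gene called higher, passed the filter only through its knockdown level (mean 5.29 in control and 5.69 in knockdown cultures). The highest gene means in the lists were 6.14, 6.73 and 7.96. Presence of such cells was not tested. Protein sequences were not used here. Alternatives changed scaling, filter, probe set rule, variance model, threshold, the replicate block and each array left out.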

Additional observations from a re-analysis of the deposited data

How the results depend on the processing

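The count of the 54 pore, receptor and Ran genes called lower was 38 as reported and 32 to 39 over the alternatives, and that called higher was 2 or 3. Without 1 array at a time it was 35 to 39 lower and 2 to 3 higher. With the mean over probe sets the median change of these genes was −0.35, that mean taking in dim probe sets. Among the 40 called genes, RAN was the 1 seen to reverse its sign, because a dimmer probe set was read. This was with probe sets lacking an _x_ or _s_ mark first (0.21). That rule left 51 of the 54 genes tested, and 37 of the 40 called ones. The filter at the 75th percentile left 48 of the 54 and 37 of the 40. The direction of genes that dropped out was not read there. Sign changes of genes not called were not counted. Against a 1.2-fold change, IPO7, KPNA1, NUP214, NUP88, XPO4 and XPO6 were not called, and all tested genes called lower came to 1459 and all tested genes called higher to 1366. Under that test 0 of the other nuclear transport genes and 1 of the lamina genes were higher. The other nuclear transport genes called higher were 2 under quantile normalization and under cyclic loess, and 1 to 2 without 1 array at a time. With the mean over probe sets KPNA4 (−0.19), NUP43 (−0.10), NUP54, NUP88 (−0.19) and NUP214 (−0.11) were not called, while TNPO3 and XPO5 were. The median change of all genes ran from −0.01 to 0.06. Same-numbered cultures did not deviate together (correlations −0.09, −0.26 and −0.30), so these values gave no sign that the numbers pair the samples. Pairing under another numbering was not tested. With the replicate block 37 of the genes were lower and 2 higher, NUP214 dropping out (adjusted p = 0.0922). Without a filter 37 were lower, since NUP214 was not called (adjusted p = 0.0631). Causes beyond those named were not tested.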
